A study of Mus musculus with 17 samples.

Results

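The transcription factor p53 (gene Trp53) and 9 genes that it is known to switch on were followed in mouse fetal liver cells. The genes were Trp53, Mdm2, Ccng1, Trp53inp1, Sesn1, Zmat3, Phlda3, Eda2r, Apaf1 and Tnfrsf10b. They were chosen by name as the p53 gene and textbook p53 targets, with earlier results of these data known. All 10 were found among the 46880 genes that the 3 deposited count tables share.

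The RNA came from 17 libraries of cells of embryonic day E12.5 to E13.5 from B6J.129(Cg) mice with the allele Gt(ROSA)26Sortm1.1 (CAG-cas9*,-EGFP, line Fezh/J), which carry Cas9 and EGFP under the CAG promoter at the Rosa26 locus. All cells therefore carried Cas9, and all carried a guide RNA and a second transgene. In 14 libraries the guide was sgGata1, and these cells are named Gata1s after the short form of the blood transcription factor GATA1. Their second transgene was LUC, a luciferase control (n = 3), or Arid3a (n = 3), both with doxycycline at 1 µg/mL for 48 h, or sh-ctrl, a control hairpin (n = 3), shArid3a, a hairpin against Arid3a (n = 2, numbered 1 and 3), or miR-125b (n = 3), these with doxycycline at 1 µg/mL for 10 days. The WT group (n = 3) carried a luciferase guide, sgLuc, with a luciferase hairpin, shLuc, and the labels list no treatment for it. The labels do not say whether libraries of a group came from separate embryos, cultures or transductions, so p-values measure the spread between these libraries only. Per its labels, the study set out to alter Arid3a in Gata1s cells, beside a group given the microRNA miR-125b.

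The p53 protein is held at a low level because MDM2, the product of one of its own target genes, marks it for degradation, and DNA damage or oncogenic signals release it from this loop. Much of the control of p53 is therefore at the protein level, which RNA counts do not show. Its targets halt the cell cycle, repair DNA, alter metabolism or carry out apoptosis, and in blood cell precursors the pathway limits growth under stress and is a barrier to leukaemia. MicroRNA miR-125b has been reported in other systems to repress p53 itself or several genes of the p53 network.

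A microRNA binds its targets mostly through its seed, bases 2 to 8, and the sequence of miR-125b-5p is shown because 3 of the 10 genes hold a match to it. The mature sequences below are from RefSeq (GRCm38.p6), with the seed in capitals, and miR-125a-5p and miR-351-5p share that seed. The mouse genome holds 2 copies of mature miR-125b-5p, at chr9:41581940-41581961 (plus strand, Mir125b-1) and chr16:77646279-77646300 (plus strand, Mir125b-2).
mmu-miR-125b-5p: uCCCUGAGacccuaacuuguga
mmu-miR-125a-5p: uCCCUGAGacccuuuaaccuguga
mmu-miR-351-5p: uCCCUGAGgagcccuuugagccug

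The longest annotated 3′ UTR of each gene (GENCODE M21, GRCm38) was searched on the transcript strand for CTCAGGG, the complement of the seed, and for CTCAGGGA, which adds an A opposite base 1 and holds the shorter motif within it. Ccng1, Trp53inp1 and Eda2r had 1 match to CTCAGGG each, and none of the 10 genes had CTCAGGGA. Among the 11499 tested genes with a 3′ UTR, 15.7% held CTCAGGG and 5.53% held CTCAGGGA. The 3 sites are printed because they are the matches held by the 10 genes. Each stretch has 30 bases with the matching bases in capitals. They lie at chr4:11170334-11170363 (plus strand) for Trp53inp1, chr11:40748819-40748848 (minus) for Ccng1 and chrX:97334187-97334216 (minus) for Eda2r. A match is a sequence description only.
Trp53inp1: agcaaaaatctattCTCAGGGtcagccata
Ccng1: aacataggcagcagCTCAGGGccctggaca
Eda2r: gaggtgagtcaggcCTCAGGGttcacttta

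Binding sites of p53 were looked for in RefSeq promoter windows, from 250 bases before to 50 after the start (GRCm38.p6). The search, on both strands, was for the canonical p53 response element of 2 adjacent half-sites with the C and G of each core kept and at most 2 mismatches. Of the 7 genes with a window in the table, Ccng1 held a match, as did 0.392% of all 27025 genes with a window. It is shown beside that of Cdkn1a, the cell cycle inhibitor p21 and the classical p53 target, with the 4 bases of each core in capitals. The Ccng1 element starts 195 bases before the RefSeq start of the gene (chr11:40755462-40755481, minus strand) and the Cdkn1a element 51 bases before its own (chr17:29090928-29090947, plus). The RefSeq start of Ccng1 differs from the GENCODE one given with its levels. No match in a window says only that the letters are not there, and many p53 sites lie in introns outside it.
Ccng1: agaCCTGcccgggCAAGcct
Cdkn1a: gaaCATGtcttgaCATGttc

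Library totals were 31339238 to 40859301 counts in the Gata1s groups and 16362439 to 19212193 in WT. The targeted gene Arid3a was at 61.7 ± 2.61 CPM (read counts normalized to library size; SD, n = 3) in LUC and 65.4 ± 10.95 (n = 3) in the libraries labelled Arid3a (edgeR log2 fold change 0.08, adjusted p = 0.737), so the counts show no rise of the gene in the libraries with that label. The sources used here do not say whether reads of the transgene are counted under the gene, so this does not tell whether the transgene was expressed. It was at 58.2 ± 7.59 in sh-ctrl, 21.9 ± 0.674 (n = 2) in shArid3a and 9.98 ± 1.73 in miR-125b, lower than sh-ctrl in both (adjusted p = 0.0368 and 0.000282). Summed counts of 7 megakaryocyte markers were 2240 to 4790 CPM in the Gata1s libraries and 898 to 1150 in WT, and WT held 9820 to 11600 CPM of 6 myeloid markers against 9.89 to 180 in Gata1s. Hepatocyte markers summed to at most 5.13 CPM in any library of these fetal liver cells.

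In the WT libraries the p53 gene and several of its targets were at a lower level than in Gata1s controls. Of the 10 genes, 6 were higher in every LUC library than in every WT library (Trp53, Ccng1, Sesn1, Zmat3, Phlda3 and Tnfrsf10b), and 2 were lower (Trp53inp1 and Apaf1). Against sh-ctrl the count was also 6 higher (Trp53, Ccng1, Sesn1, Zmat3, Phlda3 and Mdm2, the last not when each table was scaled alone) and 2 lower (Apaf1 and Tnfrsf10b). Such separation was common: 69.7% of 12279 genes with a mean of at least 1 CPM were apart between LUC and WT, and 66.1% between sh-ctrl and WT. Phlda3 was at 5.11 times its WT mean in LUC and 6.36 times in sh-ctrl, Zmat3 at 3.78 and 4.18 times, Ccng1 at 3.19 and 3.37 times, and Trp53 at 2.48 and 2.25 times. Apaf1 was 1.85 times as high in WT as in LUC and 2.18 times as high as in sh-ctrl. Genotype, doxycycline, second transgene, count table and the cell mixture seen in the markers change together here, cannot be told apart and allow no test. In bulk RNA, fewer cells of a type and less RNA per cell cannot be told apart either.

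Tests were made within a table. In the libraries labelled Arid3a against LUC, edgeR called 0 of the 10 genes at an adjusted p under 0.05, where it called 0% of 13495 genes and 2885 (21.4%) had an unadjusted p under 0.05. Of the 10, 3 had an unadjusted p under 0.05, and DESeq2 called 1, Apaf1, and 9.94% of all genes. The median log2 fold change was 0.11 over the 10 genes and 0.01 over all genes. Between shArid3a and sh-ctrl 0 of 10 were called, beside 0.0857% of 14004 genes; 4 had an unadjusted p under 0.05, as had 25.8% of all genes, and DESeq2 called 1, Zmat3, and 11.4% of all genes. The median of the 10 was -0.27, and that of all genes -0.02.

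With miR-125b against sh-ctrl, 2 of the 10 genes were called, Phlda3 as higher and Trp53inp1 as lower, beside 24.4% of all 14004 genes (12.1% as higher and 12.2% as lower). The share of the 10 genes that was called was thus close to that of all genes. Against shArid3a, 1 of 10 was called, Phlda3 as higher, beside 1.35% of genes (0.664% as higher). DESeq2 called 4 of the 10 against sh-ctrl, adding Trp53 as higher and Mdm2 as lower, beside 31.2% of genes, and 2 against shArid3a, Phlda3 and Zmat3, beside 5.21%. The shArid3a and miR-125b groups were compared with the same 3 sh-ctrl libraries, so their values below are set side by side and are not independent. Groups whose libraries did not overlap in CPM were found for 3 of the 10 genes between the libraries labelled Arid3a and LUC (27.4% of tested genes), 5 between shArid3a and sh-ctrl (44%), 5 between miR-125b and sh-ctrl (45.2%) and 3 between miR-125b and shArid3a (29.4%).

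**Figure D1:**
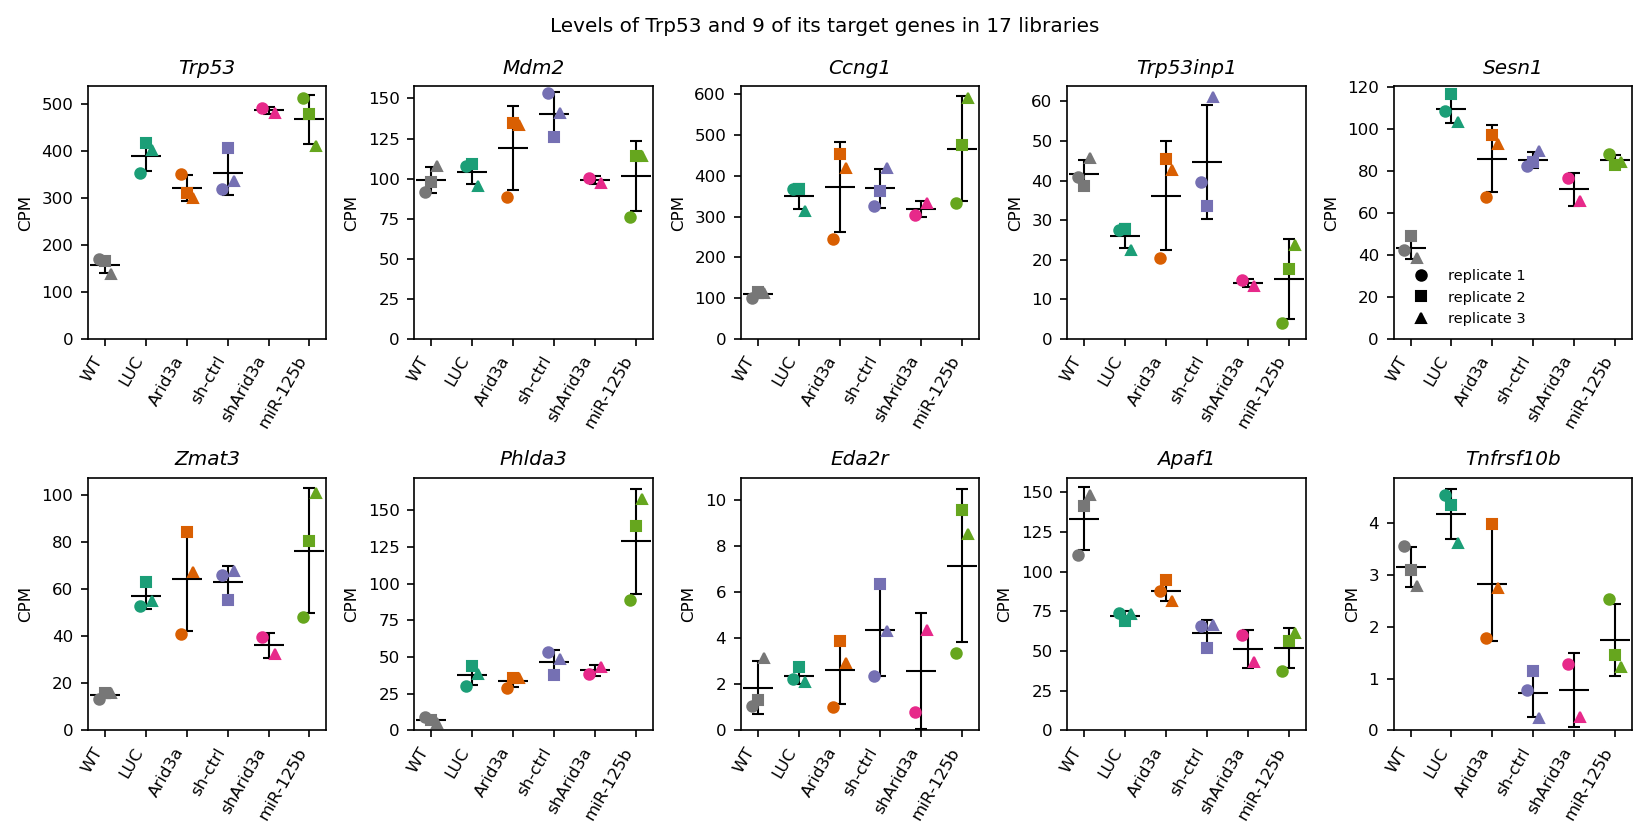
Levels of the 10 genes in all 17 libraries, in CPM scaled by TMM over all libraries (y axis, linear, each panel with its own scale from 0), by group (x axis). Symbols are libraries by replicate number, the long bar is the mean and the whiskers are the SD; in the Phlda3 panel the 3 miR-125b libraries (89.2 to 158 CPM) lie above all others.

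Trp53 (chr11:69580359-69591873, plus strand) encodes p53. Its levels were 169, 165 and 138 CPM in WT libraries 1, 2 and 3, and 353, 416 and 401 in LUC. They were 352, 310 and 300 in the libraries labelled Arid3a, just below the LUC range. They were 318, 407 and 336 in sh-ctrl, 491 and 481 in shArid3a, and 512, 479 and 410 in miR-125b. In this scaling both treated groups lay above every sh-ctrl library, but by library totals both overlapped sh-ctrl. The order of group means was shArid3a, miR-125b, LUC, sh-ctrl, the libraries labelled Arid3a and WT. Each pair of neighbours in this order overlapped, except for the last, since WT lay below all other libraries. When each table was scaled alone, sh-ctrl lay below LUC without overlap. None of the tested differences passed the threshold in edgeR: the log2 fold change was -0.28 ± 0.09 (SE, adjusted p = 0.152) for the libraries labelled Arid3a, 0.44 ± 0.16 (0.132) for shArid3a and 0.38 ± 0.14 (0.0726) for miR-125b. The miR-125b difference was called in 2 of 14 alternative fits, by DESeq2 (adjusted p = 0.0385) and without the second sh-ctrl library (0.0451). The step from shArid3a to miR-125b was -0.06 ± 0.16 (adjusted p = 0.916).

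Mdm2 (chr10:117688875-117710758, minus strand) encodes the ubiquitin ligase that degrades p53 and is itself a p53 target. It was at 91.4, 97.9 and 108 CPM in WT and at 108, 109 and 95.6 in LUC, which overlapped. The libraries labelled Arid3a had 88.6, 135 and 134 CPM, with the first below the LUC range and the other 2 above it. Levels were 154, 126 and 141 CPM in sh-ctrl, 101 and 97.3 in shArid3a, and 76.4, 114 and 114 in miR-125b. Mdm2 was thus lower in all 5 treated libraries than in any sh-ctrl library, the opposite order to Trp53 in the same scaling. The edgeR log2 fold changes were -0.52 ± 0.19 (adjusted p = 0.137) for shArid3a and -0.48 ± 0.17 (0.0601) for miR-125b, neither called. The miR-125b difference was called as lower in 3 of 14 alternative fits. These were edgeR with library totals (-0.66, adjusted p = 0.0336), edgeR with no filter on low counts (-0.48, 0.0239) and DESeq2 (-0.47, 0.0312).

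Ccng1 (chr11:40748552-40755311, minus strand) encodes cyclin G1, a p53 target that acts back on MDM2. It was the member with the highest level per kilobase of gene in LUC, 99.4 CPM per kb beside 96.4 for Trp53, with 0.400 for Eda2r at the low end. Its CPM were 100, 115 and 113 in WT, 368, 367 and 313 in LUC, and 245, 454 and 418 in the libraries labelled Arid3a. They were 325, 362 and 419 in sh-ctrl, 305 and 333 in shArid3a and 333, 475 and 590 in miR-125b. All the Gata1s groups lay above WT and the tested pairs of groups overlapped. Its 3′ UTR holds the seed match printed above, and the miR-125b mean was above sh-ctrl by a log2 fold change of 0.32 ± 0.20 (edgeR adjusted p = 0.247). The value for shArid3a was -0.23 ± 0.22 (0.548).

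Trp53inp1 (chr4:11156431-11174379, plus strand) encodes a stress protein that promotes apoptosis and autophagy with p53, and it holds 1 of the seed matches. Its levels were 40.8, 38.6 and 45.6 CPM in WT, 27.5, 27.9 and 22.4 in LUC, and 20.3, 45.5 and 42.6 in the libraries labelled Arid3a. In sh-ctrl they were 39.5, 33.5 and 61.1 CPM, in shArid3a 14.8 and 13.3, and in miR-125b 4.14, 17.6 and 23.8. Every shArid3a and miR-125b library lay below every sh-ctrl library, and the first miR-125b library was the lowest of all 17, with 116 counts. The fall with miR-125b was called (edgeR log2 fold change -1.56 ± 0.49, adjusted p = 0.0409), and the difference with shArid3a, -1.68 ± 0.56, was not (0.122), except with no filter on low counts (adjusted p = 0.000627). The shArid3a libraries lay within the miR-125b range, and the difference between these groups was 0.12 ± 0.54 (adjusted p = 0.956). The miR-125b call was lost without any single sh-ctrl library (adjusted p = 0.0557, 0.0503 and 0.141 without 1, 2 and 3), without the second miR-125b library (0.0756) and in a robust fit (0.0883).

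Sesn1 (chr10:41809935-41908424, plus strand) encodes sestrin 1, which protects from oxidative stress and restrains mTOR signalling. It was at 42.3, 48.9 and 38.3 CPM in WT and at 108, 116 and 103 in LUC, and the libraries labelled Arid3a were all below LUC at 67.4, 97.2 and 92.5. In sh-ctrl it was at 82.4, 84.0 and 89.6 CPM, in shArid3a at 76.6 and 65.7, and in miR-125b at 88.1, 82.9 and 84.0. With miR-125b, Sesn1 had the smallest difference of the 10 genes, an edgeR log2 fold change of -0.02 ± 0.12 (adjusted p = 0.911). The differences for shArid3a (-0.28 ± 0.13, adjusted p = 0.215) and for the libraries labelled Arid3a (-0.36 ± 0.13, 0.182) did not pass.

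Zmat3 (chr3:32334792-32366014, minus strand) encodes an RNA-binding zinc finger protein that restrains growth downstream of p53. Its levels were 13.4, 15.7 and 16.03 CPM in WT, 52.9, 62.9 and 54.7 in LUC, and 40.8, 84.3 and 67.1 in the libraries labelled Arid3a. They were 65.9, 55.3 and 67.5 in sh-ctrl, 39.8 and 32.4 in shArid3a, and 48.0, 80.4 and 100.5 in miR-125b. Zmat3 was therefore lower in shArid3a than in any library of sh-ctrl or miR-125b. By edgeR the difference from sh-ctrl was -0.82 ± 0.27 (adjusted p = 0.12), and that between miR-125b and shArid3a was 1.08 ± 0.27 (0.0896). Neither passed, and the miR-125b difference from sh-ctrl was 0.27 ± 0.24 (0.428). DESeq2 and edgeR with no filter on low counts called both of the former (adjusted p = 0.029 and 0.00924 against sh-ctrl, 0.0031 and 0.000244 between miR-125b and shArid3a). Leaving out the first miR-125b library also gave the latter call (1.33, adjusted p = 0.00819).

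Phlda3 (chr1:135766119-135769136, plus strand) encodes a small PH-domain protein that p53 induces and that blocks the survival kinase AKT. It was at 9.46, 7.28 and 5.30 CPM in WT, 30.5, 43.9 and 38.3 in LUC and 28.7, 35.9 and 35.6 in the libraries labelled Arid3a. It was at 53.7, 37.9 and 48.6 CPM in sh-ctrl and at 38.2 and 43.5 in shArid3a, which overlapped. The miR-125b libraries had 89.2, 139 and 158 CPM, above each of the other 14 libraries. Phlda3 rose 2.73-fold against sh-ctrl (edgeR log2 fold change 1.45 ± 0.21, adjusted p = 0.00529) and 3.16-fold against shArid3a (1.66 ± 0.25, 0.0138). The first call was made in 14 of 14 alternative fits (adjusted p from 3.09e-09 to 0.0251). The second was made in 10 of 13 and lost without shArid3a library 1, shArid3a library 3 or miR-125b library 2, with an adjusted p of at most 0.142. The shArid3a difference from sh-ctrl was -0.21 ± 0.24 (adjusted p = 0.601).

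The receptors of the set were both scarce. Eda2r (chrX:97333840-97377216, minus strand) encodes the ectodysplasin A2 receptor of the TNF receptor family and holds 1 seed match. It was at 1.06, 1.33 and 3.16 CPM in WT, 2.24, 2.74 and 2.09 in LUC, and 1.03, 3.87 and 2.92 in the libraries labelled Arid3a. In sh-ctrl it was at 2.35, 6.35 and 4.31 CPM, in shArid3a at 0.804 and 4.36, and in miR-125b at 3.35, 9.54 and 8.50. All groups compared overlapped, and the edgeR log2 fold change with miR-125b was 0.70 ± 0.60 (adjusted p = 0.407). It was -0.78 ± 0.69 (0.497) with shArid3a, whose 2 libraries lay on either side of the sh-ctrl minimum. That value rested on single libraries, at -0.026 without shArid3a library 1, -2.42 without library 3 and -0.42 without sh-ctrl library 2, none of them called.

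Tnfrsf10b (chr14:69767472-69784411, plus strand) encodes the mouse death receptor for the ligand TRAIL. Its levels were 3.56, 3.09 and 2.79 CPM in WT, 4.54, 4.35 and 3.63 in LUC, and 1.78, 3.98 and 2.74 in the libraries labelled Arid3a. They were 0.775, 1.16 and 0.244 in sh-ctrl, 1.28 and 0.267 in shArid3a, and 2.53, 1.46 and 1.23 in miR-125b. The gene was 5.75 times as high in LUC as in sh-ctrl, 2 control groups of different tables and doxycycline times. The 3 miR-125b libraries lay above those of sh-ctrl, with a log2 fold change of 1.24 ± 0.70 that did not pass (edgeR adjusted p = 0.211).

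Apaf1 (chr10:90989311-91082770, minus strand) encodes the scaffold of the apoptosome, which cytochrome c assembles to activate caspase 9. It was at 111, 141 and 148 CPM in WT and at 74.2, 68.6 and 73.3 in LUC. The libraries labelled Arid3a, with 87.6, 94.7 and 81.5 CPM, all lay above LUC (edgeR log2 fold change 0.29 ± 0.08, adjusted p = 0.108). Levels were 65.6, 51.7 and 66.3 CPM in sh-ctrl, 59.96 and 42.9 in shArid3a and 37.5, 56.3 and 61.4 in miR-125b, which overlapped (miR-125b against sh-ctrl -0.25 ± 0.21, adjusted p = 0.391). Apaf1 alone of the 10 genes had its highest group mean in WT.

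**Figure D2:**
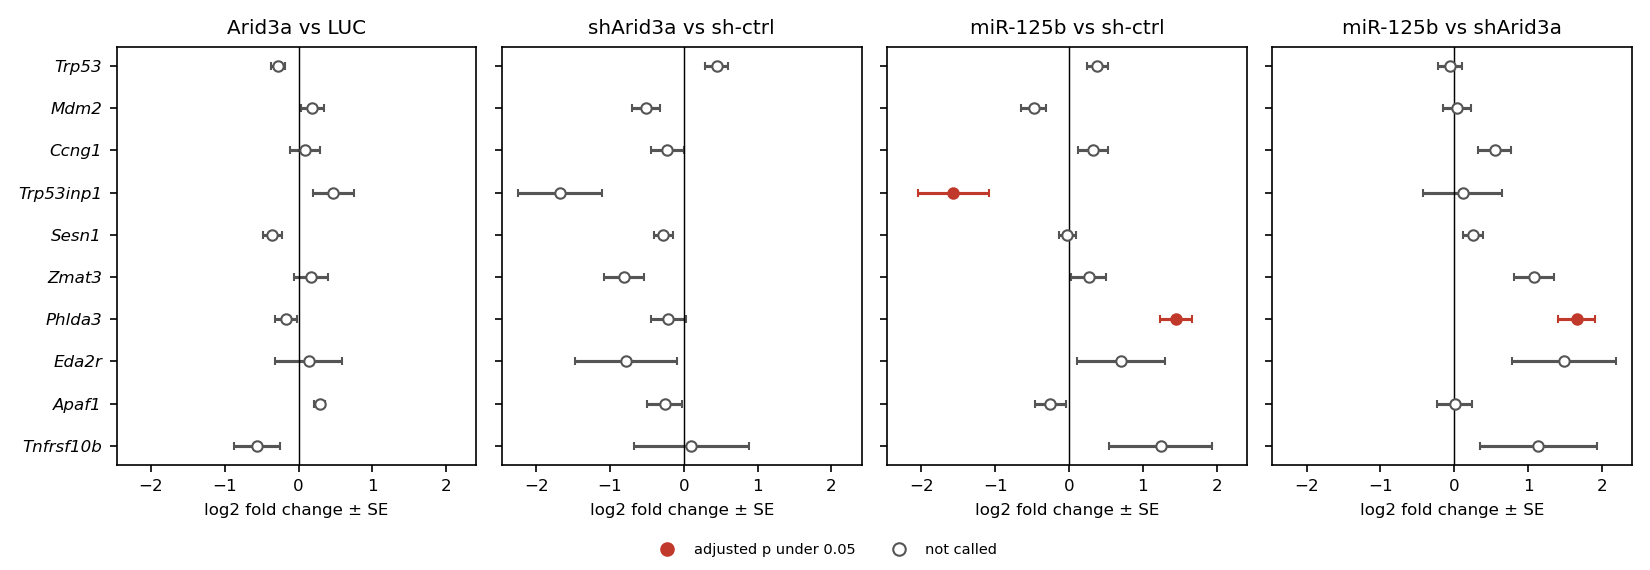
Log2 fold changes of the 10 genes with their SE (x axis) in the 4 comparisons, from edgeR's quasi-likelihood test. Filled red points passed the adjusted threshold: Trp53inp1 (-1.56) and Phlda3 (1.45) for miR-125b against sh-ctrl, and Phlda3 (1.66) for miR-125b against shArid3a.

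Single libraries stood apart for many of the 10 genes at once. The first library labelled Arid3a was the lowest of its group for 8 of the 10 genes, all but Trp53 and Apaf1, and the second was the highest for 9. Without the first, edgeR called 6 of the 10 genes against LUC, where 23.2% of 13789 genes were then called. These were Mdm2 (0.36), Ccng1 (0.32), Trp53inp1 (0.76), Zmat3 (0.41) and Apaf1 (0.29) as higher and Trp53 (-0.35) as lower, on the log2 scale. The first miR-125b library was the lowest of its group for 7 of the 10, and it was the highest for Trp53, Sesn1 and Tnfrsf10b. Mast cell and basophil markers ranged from 2.18 to 162 CPM among the libraries labelled Arid3a and from 29.6 to 391 among those of miR-125b; their part in these results was not tested.

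**Figure D3:**
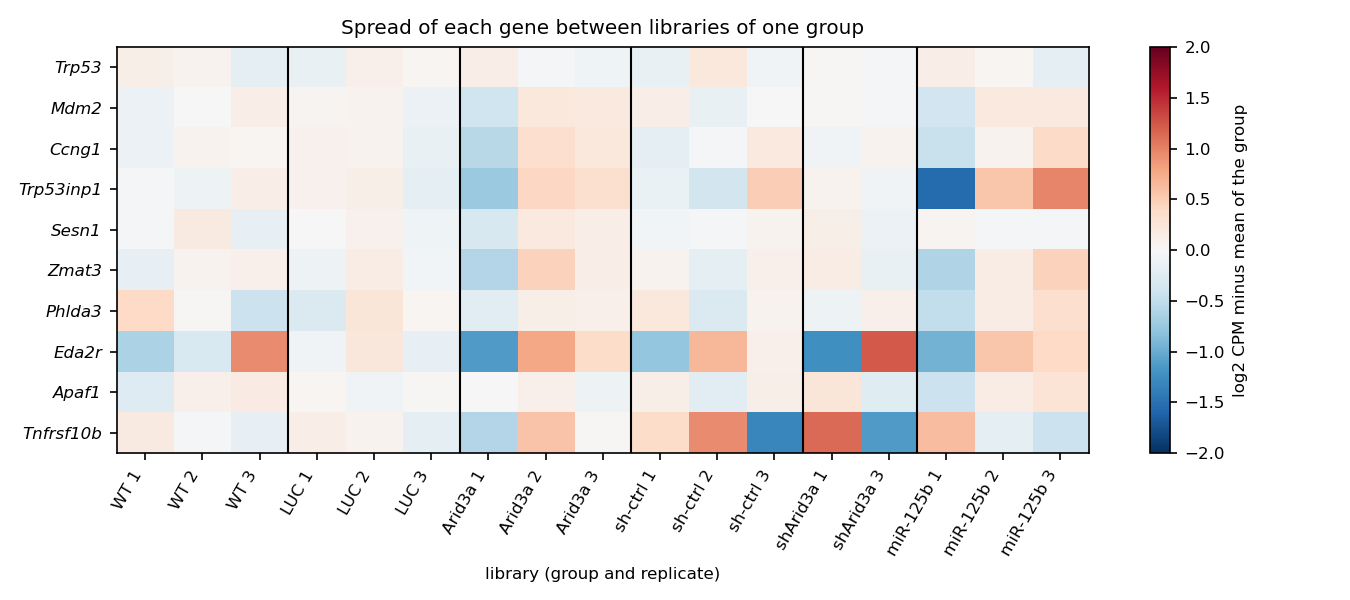
Deviation of each gene in each library from the mean of its group, in log2 CPM (colour, scale from -2 to 2), with libraries on the x axis and black lines between groups. The columns of Arid3a library 1 and miR-125b library 1 are blue, that is below the group mean, for most genes.

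Likeness was read over the 8 libraries of the sh-ctrl, shArid3a and miR-125b table. The genes most like Trp53 among 8346 protein-coding genes were Rrm1 (Pearson r 0.988 of log2 CPM), Cdc45 (0.983), Sf3b4 (0.977) and Mcm6 (0.974). Those most like Mdm2 were Arhgap45 (0.988), Socs3 (0.978), Tsc1 (0.977) and Itga2b (0.975). Trp53 and Mdm2 had r = -0.89 with each other over these libraries, Mdm2 and Trp53inp1 0.957, and Ccng1 and Zmat3 0.847. These are descriptions over 8 libraries in 3 groups and carry no test.

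The wider pathway was read from 25 regulators of p53 and 43 other targets. Upstream, Cdkn2a, whose locus makes both ARF, the inhibitor of MDM2, and the cell cycle inhibitor p16, had 0 counts in all 3 WT libraries. It was at 35.5, 41.2 and 34.1 CPM in LUC, 25.8, 27.9 and 31.5 in the libraries labelled Arid3a, 65.7, 74.4 and 63.4 in sh-ctrl, 23.4 and 64.3 in shArid3a, and 47.5, 116 and 152 in miR-125b. Taking 3 counts per library as the limit that a count of 0 allows (at most 0.167 CPM in WT, counting error only), its mean was at least 221-fold higher in LUC and at least 407-fold higher in sh-ctrl than in WT, across tables. Counts per gene do not separate its 2 products. None of the tested differences in Cdkn2a passed in the main fit, with edgeR adjusted p of 0.118 for the libraries labelled Arid3a, 0.39 for shArid3a and 0.28 for miR-125b. DESeq2 called it as lower in the libraries labelled Arid3a. With no filter on low counts, edgeR called it as higher in miR-125b against sh-ctrl and against shArid3a. The latter call was also made without the first miR-125b library.

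Among the other textbook targets, Cdkn1a was at 81.7 ± 15.7 CPM in WT, 143 ± 10.6 in LUC and 228 ± 15.3 in sh-ctrl (SD, n = 3 each). Bbc3, which encodes the apoptosis trigger PUMA, was at 28.8 ± 2.20, 99.2 ± 5.97 and 134 ± 14.2 CPM in the same groups, and Bax, the mitochondrial pore former, at 82.9 ± 16.6, 186 ± 13.7 and 295 ± 24.5. All 3 were higher in every control library of the Gata1s cells than in WT. The list as a whole was mixed: of 38 other targets with a mean of at least 1 CPM, 18 were higher and 15 lower in LUC than in WT, and 18 were higher and 12 lower in sh-ctrl. Of 23 regulators, 10 were higher and 3 lower in LUC, and 10 were higher and 9 lower in sh-ctrl. These counts stand beside the 69.7% of all genes that were apart between LUC and WT and the 66.1% between sh-ctrl and WT.

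With miR-125b against sh-ctrl, 8 of 23 tested regulators were called, 3 as higher and 5 as lower (median log2 fold change -0.07, all genes -0.03). This was 34.8% of them, beside 24.4% of all genes. The regulators that fell included Ep300, a p53 acetyltransferase (-0.94 ± 0.18, adjusted p = 0.00872), Mdm4, the partner of MDM2 that masks p53 (-1.23 ± 0.26, 0.0125), and the p53 kinases Atm (-1.21 ± 0.27, 0.0144) and Hipk2 (-0.92 ± 0.21, 0.0144). Those that rose were Rchy1 and Cop1, ubiquitin ligases for p53, and Rpl11, a ribosomal protein that binds MDM2. With the replicate number as a block the 5 lower calls and those of Rchy1 and Cop1 were made, and that of Rpl11 was lost. That fit called 26.3% of all genes. By library totals Rpl11 was the 1 regulator called as higher. Mdm4 was at 226, 143 and 280 CPM in sh-ctrl and at 70.5, 94.3 and 114 in miR-125b, with no overlap. The same gene was at 122 and 83.2 CPM in shArid3a (-1.09 ± 0.30, adjusted p = 0.101, not called).

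Of 41 other targets tested in that comparison, 6 rose and 2 fell, with a median of 0.00. The share called, 19.5%, was below the 24.4% of all genes, so the genes named here do not set the list apart. Bax rose from 321, 294 and 272 CPM in sh-ctrl to 428, 568 and 591 in miR-125b (edgeR log2 fold change 0.83 ± 0.16, adjusted p = 0.0102). Rps27l, a ribosomal protein paralogue, rose by 0.90 ± 0.18 (0.0108) and Ak1, adenylate kinase 1, by 2.24 ± 0.47 (0.0124), whereas Rrm2b, the p53-inducible ribonucleotide reductase subunit, fell (-1.01 ± 0.24, 0.0171). Cdkn1a (0.26 ± 0.24, adjusted p = 0.465) and Bbc3 (0.09 ± 0.22, 0.801) did not pass. Without the first miR-125b library, 8 other targets were called as higher, Cdkn1a among them, and 3 as lower, beside 12.7% of all genes. Bbc3 was not called there. Scaling by library totals, which moved the median of all genes to -0.22, gave 1 regulator higher and 7 lower, and 5 other targets higher and 4 lower. Of all genes, 23.9% were called with that scaling. A fit with the replicate number as a block gave 6 other targets higher and 7 lower, beside 26.3% of all genes called.

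Of the apoptosome and death receptor list, 7 of 15 tested genes were called with miR-125b, 3 as higher and 4 as lower (46.7%, beside 24.4% of all genes). Cflar, an inhibitor of death receptor signalling, fell (edgeR log2 fold change -0.79 ± 0.16, adjusted p = 0.0109), while Cycs, cytochrome c (0.92 ± 0.17, 0.00911), and the mitochondrial flavoprotein Aifm1 (0.69 ± 0.15, 0.0129) rose. Casp9, caspase 9, was also called as lower, at 19.7 ± 2.21 CPM in sh-ctrl and 10.3 ± 1.16 in miR-125b (SD), as was Xiap. Without the third sh-ctrl library, 1 gene of this list was called as higher and 1 as lower, beside 5.3% of all genes. Of 28 cell cycle genes, 5 rose and 1, Mki67 (-0.86 ± 0.16, 0.00909), fell, a share of 21.4% that was close to that of all genes. The examples that rose were Birc5 (0.66 ± 0.15, 0.0142), Tyms (0.67 ± 0.18, 0.0245) and Pcna (0.57 ± 0.17, 0.0351). By library totals only 1 cell cycle gene rose, Birc5, and 2 fell, Mki67 and Top2a, beside 23.9% of all genes called.

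Some markers of blood and other cell types also differed between miR-125b and sh-ctrl. Of 6 myeloid markers, 3 were called as higher (12.1% of all genes were): Mpo, myeloperoxidase (edgeR adjusted p = 0.00162), Elane (0.0248) and Lyz2 (0.0204). Mpo was at 69.6, 29.5 and 40.1 CPM in miR-125b and at most 0.620 in sh-ctrl, whereas Prtn3, another neutrophil protease gene, was at 70.3 ± 38.9 and 76.5 ± 27.2 CPM and was not called (0.827). The summed level of the 6 was 99.1 to 180 CPM in miR-125b, 67.2 to 112 in sh-ctrl and 44.1 to 73.9 in shArid3a. Of 7 megakaryocyte markers 1 was called as higher and 2 as lower, with a summed level of 3120 to 3970 CPM in miR-125b and 3020 to 4790 in sh-ctrl. Of 6 mast cell and basophil markers 2 were called as higher (29.6 to 391 CPM in all, against 5.58 to 66.9), and of 5 tested erythroid markers 1 was called as lower (136 to 214 against 187 to 306). The 1 tested hepatocyte marker was called as higher, at a summed level of at most 5.13 CPM for that list. Among 4 progenitor and 2 tested endothelial markers edgeR called 0, with 2 and 1 at an unadjusted p under 0.05. Their part in the p53 results was not tested. Without the third sh-ctrl library, which left 5.3% of 13840 genes called, 2 of the regulators and other targets were still called, Ep300 and Ak1, and Phlda3 was the 1 member called.

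**Figure D4:**
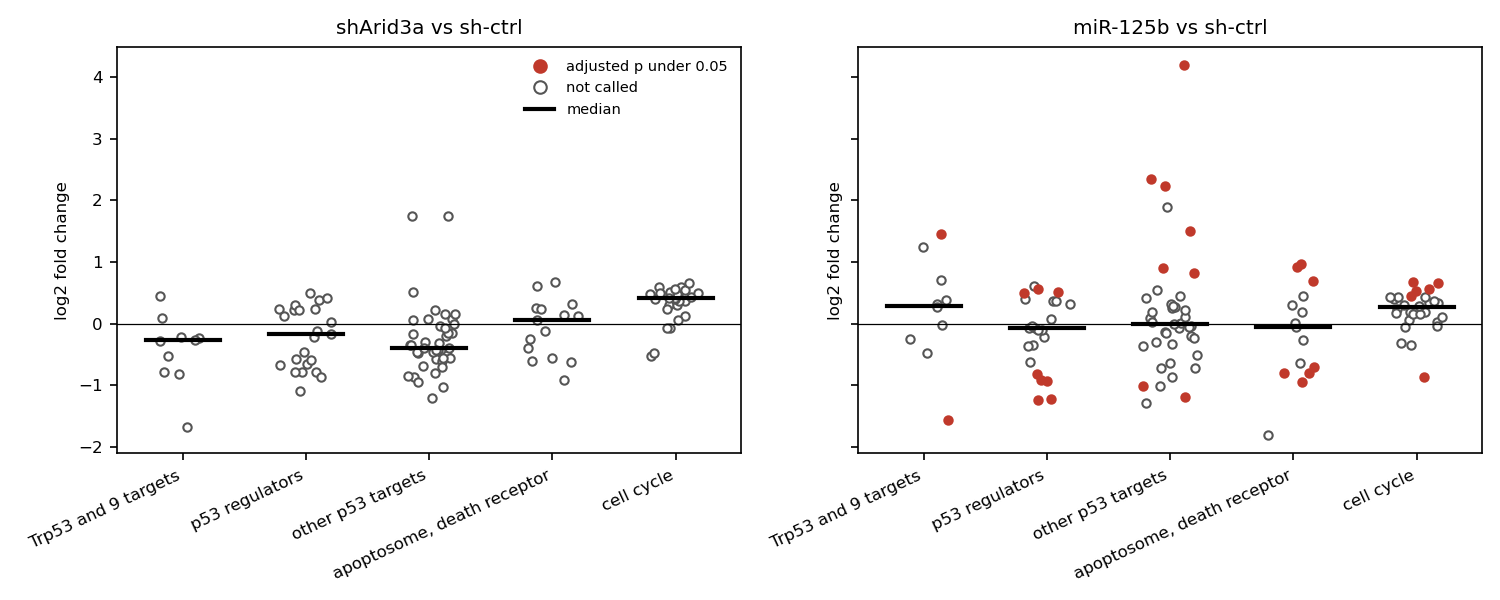
Log2 fold changes (y axis) of single genes in 5 lists (x axis, with the number of points set by the genes tested) for shArid3a and miR-125b, each against the same sh-ctrl libraries. Filled red points passed the adjusted threshold of edgeR and bars are medians; the medians of the other p53 targets are -0.39 with shArid3a and 0.00 with miR-125b.

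In the remaining comparisons edgeR called 0 genes of these 4 lists. With shArid3a, 32 of the 41 other targets had a negative log2 fold change (median -0.39, 10 with an unadjusted p under 0.05), as had 13 of 23 regulators (median -0.16, 9 under 0.05). Cell cycle genes were positive in 24 of 28 cases (median 0.42, 20 under 0.05). Of all genes in this comparison, 25.8% had an unadjusted p under 0.05, and the other targets, with 10 of 41, were near that share. DESeq2 called 9 of the 64 regulators and other targets there, beside 11.4% of all genes. The genes with the smallest p in each list were Ep300 (-0.78 ± 0.20) and Mdm4 (-1.09 ± 0.30) of the regulators, Casp1 (1.74 ± 0.44) and Tigar (-1.03 ± 0.34) of the targets, Aifm1 (0.68 ± 0.16) and Cflar (-0.61 ± 0.18) of the apoptosis list, and Aurka (0.60 ± 0.14) and Cdk1 (0.55 ± 0.15) of the cell cycle list, with adjusted p of 0.0989 to 0.12. Bax was at 0.06 ± 0.18, Cdkn1a at -0.15 ± 0.27 and Bbc3 at -0.58 ± 0.25 on the log2 scale, with adjusted p of 0.846, 0.751 and 0.186.

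Between miR-125b and shArid3a, 31 of the 41 other targets were positive (median 0.34, all genes -0.01). The same shArid3a libraries gave the negative values against sh-ctrl above, so these results are not independent. An unadjusted p under 0.05 was found for 10 of the 41, beside 14.5% of all genes. Ak1 (2.69 ± 0.57, edgeR adjusted p = 0.0518) and Dglucy, a mitochondrial D-glutamate cyclase (1.75 ± 0.41, 0.0738), had the smallest p, and both were called when the replicate number was fitted as a block. DESeq2 called 5. Bax was at 0.76 ± 0.18 (0.079), Bbc3 at 0.66 ± 0.25 (0.262) and Cdkn1a at 0.41 ± 0.28 (0.547). Without the first miR-125b library, 7 other targets were called as higher and 1 as lower, beside 2.36% of all genes. Bax, Bbc3 and Cdkn1a were among those called as higher. Among regulators, 4 of 23 had an unadjusted p under 0.05, led by Cdkn2a (1.28 ± 0.47, 0.239) and Kdm1a (-0.28 ± 0.12, 0.297). Of the apoptosis list 3 were under 0.05, among them Endog (0.81 ± 0.32, 0.27), and of the cell cycle list Top2a (-0.48 ± 0.16, 0.185) and Aurka (-0.36 ± 0.14, 0.28) came first of 4.

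In the libraries labelled Arid3a against LUC, 10 of 23 regulators and 5 of 38 other targets had an unadjusted p under 0.05, as had 5 of 15 genes of the apoptosis list, 8 of 28 of the cell cycle list and 21.4% of all genes. The first genes of the lists were Ppp1r13b (0.31 ± 0.07) and Hipk2 (1.31 ± 0.33), Rps27l (-0.43 ± 0.07) and Dglucy (0.84 ± 0.18), Xiap (0.38 ± 0.09) and Cflar (0.28 ± 0.07), and Tyms (-0.46 ± 0.06) and Pcna (-0.35 ± 0.06), on the log2 scale. Their edgeR adjusted p lay between 0.0701 and 0.107. DESeq2 called 11 of the 61 regulators and other targets, beside 9.94% of all genes. Mdm4 was at 0.26 ± 0.08 (0.138), Cdkn1a at -0.07 ± 0.18 (0.856), Bax at -0.21 ± 0.08 (0.211) and Bbc3 at -0.10 ± 0.09 (0.531).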

How the data were processed

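Per the submitters' processing notes, fastp, HISAT2 2.0.5, featureCounts and the mm10 build were used, and the authors deposited raw read counts per gene in 3 tables, without normalization. Annotation release and strand setting are not given in the sources used here, so reads of overlapping genes might not be told apart; no exon of the 10 genes is shared with another GENCODE gene. Tables were joined by Ensembl identifier. Of shArid3a, number 2 was not analysed here.

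The tests used edgeR version 4.0.16 under R 4.3.3 (TMM, filterByExpr, glmQLFit, glmQLFTest, 1 term per group, Benjamini-Hochberg over all genes tested, threshold 0.05), and the 8 libraries of the hairpin and microRNA table were fitted together; all 10 genes passed the filter on low counts in both tables. SEs come from the F statistics. CPM in the text use TMM over all 17 libraries, and gene lengths are those of the WT table. The fit was tested on simulated data in which 100 genes were changed 2-fold and 100 others 4-fold. Of the 2-fold changes it recovered 57 for the libraries labelled Arid3a and 33 for shArid3a. It recovered 41 and 33 for miR-125b against sh-ctrl and against shArid3a. Of the 4-fold changes it recovered 83, 73, 73 and 70 in the same order. A gene that was not called may therefore still differ 2-fold. In each comparison 10 or 11 unchanged genes were called as well. Simulated libraries varied independently, unlike those described below, so these numbers need not hold for the deposited libraries. Alternatives were DESeq2 1.42.0 and other settings given in the closing section.

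Libraries of the same number deviated together in that table (correlation 0.151 to 0.431 in all 7 pairs). This comes from the data, not the labels, and the 7 values are not independent, since deviations were taken from group means. In the LUC and Arid3a table the correlations were 0.158, 0.365 and 0.008. The main tests had no pairing term in either table, and the replicate number was fitted as a block in an alternative only.

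The 10 genes and the lists were chosen with earlier results of these data known. Of each other list, up to 4 called genes with the smallest adjusted p were named, or the 2 with the smallest p where none was called; Cdkn1a, Bax, Bbc3, Mdm4 and Cdkn2a were always named. 1 gene that the rule takes is not reported here. Rchy1, Cop1 and Rpl11, Top2a by library totals and DESeq2's Apaf1, Zmat3, Trp53 and Mdm2 complete counts. With miR-125b, Casp9 and Xiap were named outside this rule. Marker lists are given mainly as summed levels, outside this rule.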

Additional observations from a re-analysis of the deposited data

How the results depend on the processing

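Across the alternative fits, 487 of the 530 fold changes of single genes kept their direction and side of the threshold. With DESeq2 the 10 genes gave 1, 1, 4 and 2 calls and the regulators and other targets 11, 9, 21 and 5, for the libraries labelled Arid3a, for shArid3a, and for miR-125b against its control and then against shArid3a, where edgeR gave 0, 0, 2 and 1 and 0, 0, 16 and 0. DESeq2 called 1342, 1600, 4367 and 729 genes in all, and edgeR 0, 12, 3414 and 189. Without a filter on low counts, 2 of the 10 genes and 7 others were called with shArid3a, beside 5.7% of 21696 genes. Between miR-125b and shArid3a these counts were 2 and 7, beside 3.3%. A robust fit left 1 of the 10 called with miR-125b against sh-ctrl, beside 24.9% of all genes. Between miR-125b and shArid3a, DESeq2's size factors gave 1 regulator or other target, leaving out ribosomal RNA-like genes 1 and the replicate block 2. Of all genes these fits called 1.52%, 1.46% and 1.82%, in the same order. The block changed no call of the 10 genes.

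Leaving out 1 library gave 0 to 6 calls of the 10 genes and 0 to 17 of the others for the libraries labelled Arid3a, 0 to 0 in both for shArid3a, 1 to 2 and 2 to 16 for miR-125b against sh-ctrl, and 0 to 2 and 0 to 9 for miR-125b against shArid3a. The highest values came without the first library labelled Arid3a and the first of miR-125b, and the 2 without the third sh-ctrl library. Of all genes, 23.2% were called without the first library labelled Arid3a and 5.3% without the third sh-ctrl library. Without the first of miR-125b the share was 12.7% against sh-ctrl and 2.36% against shArid3a. Where 1 shArid3a library remained, it was assumed to vary like the others.

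Reversed fold changes, all uncalled, were as follows, and the cause was not tested. For the libraries labelled Arid3a, Eda2r was -0.022 with the replicate block. Without their second library Ccng1 was -0.077, Zmat3 -0.078 and Eda2r -0.26, without the third Ccng1 was -0.0021, and the other ends of the ranges, without the first, were 0.32, 0.41 and 0.52. For shArid3a, Tnfrsf10b was -0.044 by library totals, -0.33 without the third sh-ctrl library and -1.46 to 0.83 over the libraries left out. Between miR-125b and shArid3a, Trp53inp1 was -0.13 with the block and -0.37 to 0.56 over the libraries left out, lowest without the third of miR-125b. There Mdm2 was -0.01 without shArid3a library 3, -0.041 without miR-125b library 2, -0.062 without library 3 and at most 0.21. Apaf1 was -0.23, -0.046 and -0.14 in the same 3 fits and at most 0.29, and Trp53 was -0.13 to 0.021, positive without miR-125b library 3.

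Levels scaled by TMM within each table, or by library totals, moved 18 of 60 group means by more than 1 SD. Within tables, Mdm2 was no longer apart between sh-ctrl and WT or between sh-ctrl and LUC, and Trp53 became apart between sh-ctrl and LUC. Depth limits Tnfrsf10b and Eda2r most.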
